A study of Mus musculus with 4 samples.

Results

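The transcripts of 9 genes of the AKT and mTOR axis were examined in Tom+ and Tom- lymphoma cells: the kinases Akt1 and Akt2, the mTOR kinase Mtor with its partner subunits Rptor, Rictor and Mlst8, the inhibitory pair Tsc1 and Tsc2, and the GTPase Rheb. They were taken by symbol as the core of the pathway, with no rule on their values, and are 9 of 34866 genes in the table. All 9 were among the 11339 genes that reached 1 TPM, the transcripts per 1000000 transcripts of a library, in 2 or more libraries and entered the test.

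The 4 RNA-seq libraries came from the spleens of 2 λ-MYC Tom+/ki mice, each bearing an IgM+ Tom+ lymphoma (tumors #1 and #2). From each mouse, B220+ IgM+ Tom- and B220+ IgM+ Tom+ cells were sorted, which gave 2 libraries per group. Both mice carried a translocated human MYC gene driven by Igλ regulatory sequences, a Cre recombinase allele, and a tdTomato reporter at R26 that Cre switches on for good. Tom+ cells are therefore cells in which, or in an ancestor of which, Cre had been active at some time. Tom- cells of the same spleen shared the transgene and both alleles. A mouse without the MYC transgene was not part of the RNA-seq experiment, the ages of the 2 mice are not given in the sources used here, and each tumor is 1 mouse.

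In the pathway, growth factor and antigen receptor signals act through PI3K to activate AKT, which phosphorylates and restrains the TSC1-TSC2 complex. TSC2 is a GTPase-activating protein for RHEB, and RHEB bound to GTP activates mTORC1, the mTOR complex that contains Raptor (Rptor) and drives protein synthesis and cell growth. mTORC2, the complex that contains Rictor, phosphorylates AKT itself. mLST8 (Mlst8) is part of both complexes. In B cells the axis is known for its part in growth after antigen encounter and in the germinal center. Activity in this pathway is set mainly by phosphorylation and GTP loading, which transcript levels do not measure.

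The 250 bases before the start annotated in RefSeq are shown for 2 of the genes. Mtor was taken because it had the smallest p-value of the set. Rheb was taken because its window alone held the E-box, the motif that MYC binds. The sequences are RefSeq windows on GRCm38.p6, written 5′ to 3′ on the strand of the gene. The Mtor window is chr4:148448332-148448581 on the plus strand and the Rheb window is chr5:24842362-24842611 on the minus strand. Capitals mark the E-box CACGTG, the CCAAT box and the GC box GGGCGG, each on either strand, so that ATTGG and CCGCCC are the CCAAT box and the GC box read on the other strand.
Mtor: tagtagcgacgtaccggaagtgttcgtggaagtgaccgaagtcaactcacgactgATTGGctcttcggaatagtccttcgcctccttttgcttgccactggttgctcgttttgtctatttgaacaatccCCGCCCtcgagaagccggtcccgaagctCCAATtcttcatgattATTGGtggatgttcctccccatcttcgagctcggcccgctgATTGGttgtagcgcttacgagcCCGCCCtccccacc
Rheb: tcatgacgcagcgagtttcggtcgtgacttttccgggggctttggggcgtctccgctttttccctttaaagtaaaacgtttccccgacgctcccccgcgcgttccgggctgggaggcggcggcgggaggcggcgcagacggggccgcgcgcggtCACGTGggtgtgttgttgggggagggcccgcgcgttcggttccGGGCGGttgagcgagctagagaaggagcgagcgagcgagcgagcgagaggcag
In the Mtor window the CCAAT box occurred 4 times and the GC box 2 times. A CCAAT box was present in 33.8% of the 32851 RefSeq windows of this length, and 0.840% of them held as many as 4. The Rheb window held 1 E-box, 90 bases before the RefSeq start, and 1 GC box. This window lies inside the span of Rheb in GENCODE, which gives the positions below and starts the gene at base 24842624. The E-box was found in 6.02% of all windows and in 1 of 13 windows of the 9 genes. The forkhead motif GTAAACA was found for Akt1 alone (3.17% of all windows) and the ATF4-type motif TGATGNAA for Akt2 alone (3.45%). CCAAT was found for Mtor and Rictor, and GGGCGG (32.7% of all windows) for Akt1, Akt2, Mtor, Rheb and Rictor. These are matches of letters and not measured binding.

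TPM counts transcripts after division by their length, so levels of different genes in a library can be set side by side. TPM keeps no record of read numbers, which leaves library depth unknown and allows no counting error. Between 10298 and 11357 genes reached 1 TPM per library, and immunoglobulin genes took 5.35 to 9.76% and mitochondrial genes 6.61 to 15.6% of the total, the latter more in tumor #2. Genes annotated as pseudogenes took 23.4 to 31.3% of the total, more in tumor #1. All 8 B cell markers, Ms4a1 among them, were at 1 TPM or more in every library, with sums of 1128 TPM (Tom-) and 1045 TPM (Tom+) in tumor #1 against 2946 TPM (Tom-) and 2353 TPM (Tom+) in tumor #2. Markers of other cells were low or uneven. The 7 T cell markers summed to 0.533 to 8.48 TPM, with Cd3e at 0.0687 TPM or less in every library. In tumor #2 Cd3d was at 7.77 TPM in Tom- and 2.09 TPM in Tom+ cells, and Cd3e and Cd4 were also lower in Tom+ cells. The others went the other way in tumor #2. Cd3g went from 0.104 to 1.35 TPM and Cd8b1 from 0 to 2.02 TPM. Lat went from 0.205 to 1.78 TPM and Cd8a from 0.212 to 0.445 TPM. The 8 myeloid markers summed to 2.64 to 13.5 TPM, and 6 erythroid markers to 0.619 to 21.5 TPM with 3 of them at 0 throughout. The sum of 6 plasma cell markers was 164 TPM (Tom-) and 161 TPM (Tom+) in tumor #1 and 118 TPM (Tom-) and 314 TPM (Tom+) in tumor #2, and the high last sum was made by Jchain, at 209 TPM in Tom+ cells of tumor #2 against 0.330 to 1.72 TPM elsewhere. The other plasma cell markers did not share that height. In tumor #2 Mzb1 was at 94.8 TPM in Tom- and 80.6 TPM in Tom+ cells. The rest were higher in Tom+ cells of tumor #2. There Xbp1 went from 18.7 to 21.2 TPM and Derl3 from 2.80 to 2.93 TPM. Prdm1 went from 0.105 to 0.570 TPM and Sdc1 from 0 to 0.428 TPM. Immunoglobulin genes took 5.35% of the total in Tom- and 9.76% in Tom+ cells of tumor #2. In bulk RNA, fewer cells of a type and less RNA per cell cannot be told apart.

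Akt1 was the most abundant of the 9 transcripts and Rictor the least. The mean over the 4 libraries was 114 TPM for Akt1, 73.8 TPM for Rheb, 70.8 TPM for Tsc2, 18.1 TPM for Akt2, 12.5 TPM for Mtor, 6.57 TPM for Tsc1, 6.50 TPM for Mlst8, 5.53 TPM for Rptor and 4.84 TPM for Rictor. Akt1 lay above 92.8% of the protein-coding genes tested and Mtor above 49.6%, whereas the 3 partner subunits lay above only 25.5 to 32%. Along this order, the ranges of neighboring genes were apart at 2 places, between Akt1 and Rheb and between Tsc2 and Akt2. Mtor was above Tsc1 in all 4 libraries although their ranges met, and the order of Tsc1 and Mlst8 was split 2 to 2. The GTPase Rheb and its inhibitor Tsc2 therefore had levels that did not differ beyond their spread, while Tsc1 was present at 0.0509 to 0.148 of the level of Tsc2.

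**Figure D1:**
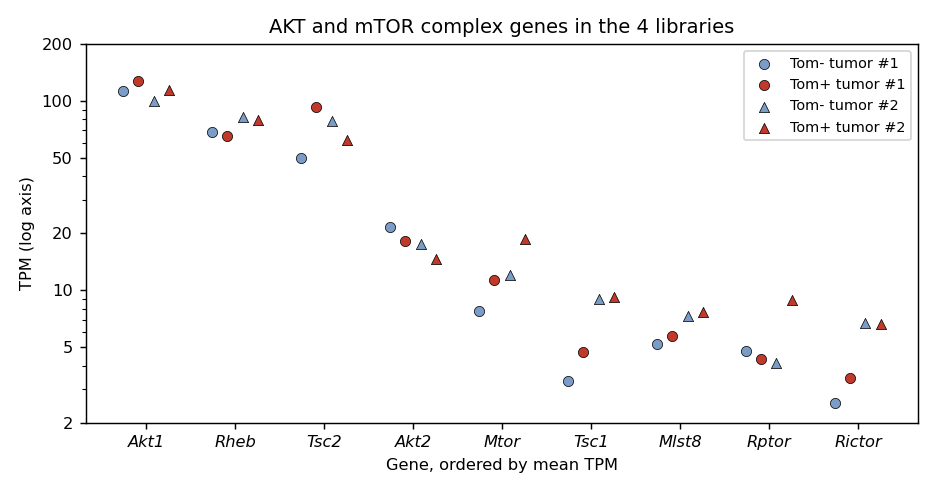
TPM (log axis) of the 9 genes in each of the 4 libraries, ordered by mean level. Circles are tumor #1, triangles tumor #2, blue Tom- cells and red Tom+ cells. Akt1, Rheb and Tsc2 lie above 49 TPM in every library and the Tom+ point of Mtor is above its Tom- point in both tumors.

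Tom+ and Tom- cells of the same mouse were compared to ask whether transcripts of this axis differ between lymphoma cells with and without the recombined reporter. None of the 9 genes passed an adjusted p-value of 0.05, and neither did any other gene (0% of 11339 tested; limma on log2(TPM + 1) with the tumor as a block and Benjamini-Hochberg adjustment). At an unadjusted p below 0.05, 1 of the 9, Mtor, was called, beside 4.67% of all genes tested. Akt1, Mtor, Mlst8 and Tsc1 were higher in Tom+ cells of both tumors, which is 4 of 9 beside 21.6% of all genes tested. Akt2 and Rheb were lower in both, which is 2 of 9 beside 29.5%, and Rptor, Rictor and Tsc2 had opposite signs in the tumors. The median log2 fold change of the 9 was 0.18 (SD of the medians of the 2 tumors 0.0995), with 0.16 in tumor #1 and 0.024 in tumor #2, beside −0.033 for all genes tested. With 2 pairs an exact permutation test cannot give a p below 0.5. The p-values set each change against how far it differed between the 2 tumors, moderated toward the trend over all genes tested. With 1 residual and 2.21 prior degrees of freedom, most of the weight lay on that trend. They describe these 4 samples only.

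**Figure D2:**
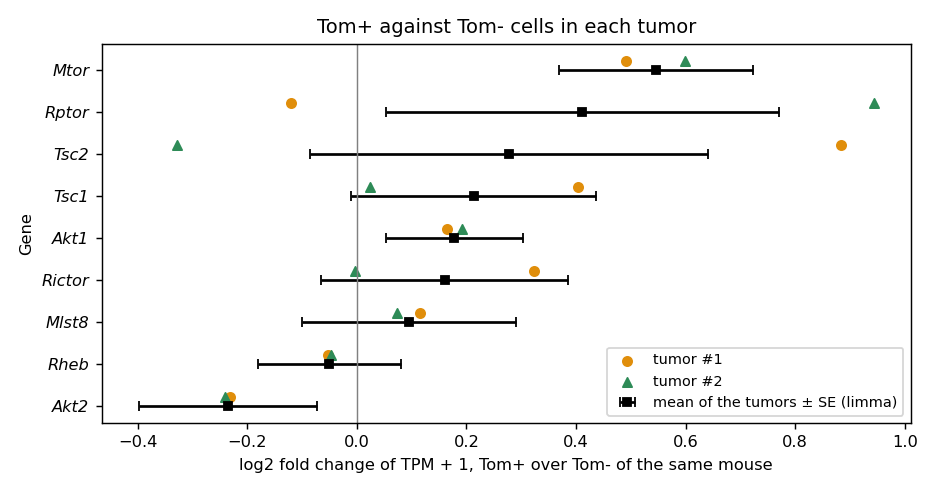
Log2 fold change of TPM + 1 of Tom+ over Tom- cells for each gene, in tumor #1 (circles), in tumor #2 (triangles) and as the limma estimate over both with its standard error (squares). The tumors lie close together for Akt1, Akt2, Mtor, Mlst8 and Rheb and on either side of 0 for Tsc2 and Rptor.

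The AKT kinases differed between the fractions by small steps of opposite sign, and neither passed the test. Akt1 (ENSMUSG00000001729, GRCm38 chromosome 12, bases 112653821 to 112674884) encodes the broadly expressed serine-threonine kinase that acts on TSC2 and FOXO factors. It was at 113 TPM in Tom- and 127 TPM in Tom+ cells of tumor #1, while the values in tumor #2 were 99.8 and 114 TPM. Both Tom+ libraries were above both Tom- libraries, by a narrow margin between Tom+ of tumor #2 and Tom- of tumor #1. This held for 1 of the 9 genes, beside 6.42% of all genes tested, and the reverse order for none of the 9, beside 9.86%. The log2 fold change was 0.18 ± 0.12 (SE, n = 2 tumors), which did not pass the test (limma unadjusted p = 0.243, adjusted p = 0.936).

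Akt2 (ENSMUSG00000004056, chromosome 7, bases 27591552 to 27640826), the isoform best known for insulin-driven glucose uptake, went the other way. Its level was 21.7 TPM in Tom- and 18.3 TPM in Tom+ cells of tumor #1, while the values in tumor #2 were 17.5 and 14.7 TPM. Tom+ cells were again on the same side in both mice, with overlapping groups, and the log2 fold change of −0.24 ± 0.16 did not pass (limma unadjusted p = 0.237, adjusted p = 0.936). Of all stretches of 60 bases, the read length, in Akt2 transcripts, 7.97% also occur in the pseudogene Akt2-ps, so reads could be split between them.

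Because both AKT genes are read in the same library, their ratio needs no scaling between libraries. Akt1 was 5.22 times Akt2 in Tom- and 6.93 times in Tom+ cells of tumor #1, and 5.69 and 7.77 times in those of tumor #2. Both Tom+ libraries were above both Tom- libraries. On the log2 scale the ratio differed by 0.43 ± 0.029 (SD, n = 2 tumors). This was 1 of 7 pairs of genes compared in this way, and the ratios were not tested.

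Mtor (ENSMUSG00000028991, chromosome 4, bases 148448611 to 148557683), the catalytic subunit of both complexes, had the largest fold change of the 9. It went from 7.80 TPM (Tom-) to 11.4 TPM (Tom+) in tumor #1, a ratio of 1.46, and from 12.0 to 18.7 TPM in tumor #2, a ratio of 1.56. The step was of like size in both mice, but Tom+ cells of tumor #1 were below Tom- cells of tumor #2, so the groups overlapped. The 95% interval of its log2 fold change began at 0.0013, its unadjusted p was 0.0497 and its adjusted p 0.936 (limma). It ranked at place 529 of 11339 by p, among 530 genes with an unadjusted p below 0.05. The unadjusted p was 0.0551 without the filter on low values, and without the tumor block 0.256. No stretch of 60 bases in Mtor transcripts occurs in another annotated gene. Exosc10, a subunit of the RNA exosome that starts 745 bases after Mtor on the same strand, went from 67.6 TPM (Tom-) to 51.6 TPM (Tom+) in tumor #1 and, in tumor #2, from 72.9 to 63.5 TPM.

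None of the subunits that join mTOR passed the adjusted or the unadjusted threshold. Rptor (ENSMUSG00000025583, chromosome 11, bases 119602905 to 119899576), the substrate-recruiting subunit of mTORC1, was at 4.79 TPM in Tom- and 4.33 TPM in Tom+ cells of tumor #1, while the values in tumor #2 were 4.14 and 8.88 TPM. A single library, Tom+ of tumor #2, was high, and the log2 fold change of 0.41 ± 0.36 was −0.12 in tumor #1 and 0.94 in tumor #2 (limma unadjusted p = 0.329, adjusted p = 0.936). The same library was the one with Jchain at 209 TPM and with the uneven plasma cell and T cell markers given above. The part of other cells in the Rptor value was not tested.

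Rictor (ENSMUSG00000050310, chromosome 15, bases 6708379 to 6800401), which defines mTORC2, was at 2.55 TPM in Tom- and 3.45 TPM in Tom+ cells of tumor #1, while the values in tumor #2 were 6.69 and 6.67 TPM. Both libraries of tumor #2 were above both of tumor #1, whichever fraction they held. Its log2 fold change between Tom+ and Tom- cells was 0.16 ± 0.23 (limma unadjusted p = 0.525, adjusted p = 0.950). The change in tumor #2 was −0.0031 and became 0.014 to 0.057 under 5 other scalings of the libraries.

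Mlst8 (ENSMUSG00000024142, chromosome 17, bases 24473551 to 24479078), the shared subunit that stabilizes the kinase domain, was the steadiest of the subunits between the fractions. It was at 5.23 TPM in Tom- and 5.76 TPM in Tom+ cells of tumor #1, while the values in tumor #2 were 7.29 and 7.73 TPM, so tumor #2 was again the higher. The log2 fold change was 0.095 ± 0.20 (limma unadjusted p = 0.659, adjusted p = 0.966). Bricd5 lies inside Mlst8 on the opposite strand and shares 15.3% of its stretches of 60 bases. It was listed at 0 in all 4 libraries.

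The ratio of Mtor to Mlst8 was 1.49 in Tom- and 1.98 in Tom+ cells of tumor #1 and 1.65 and 2.42 in those of tumor #2. The Tom+ libraries were the higher in this ratio too, by 0.48 ± 0.10 on the log2 scale (SD, n = 2 tumors). Mtor to Rictor was also higher in Tom+ cells of both tumors, at 3.06 and 3.30 in tumor #1 and 1.8 and 2.80 in tumor #2. Mtor to Rptor turned, from 1.63 to 2.63 in tumor #1 and from 2.90 to 2.11 in tumor #2. The balance of the complex-defining subunits, Rptor over Rictor, went from 1.88 in Tom- to 1.26 in Tom+ cells of tumor #1 and from 0.619 to 1.33 in tumor #2, so the 2 Tom+ libraries were close and the 2 Tom- libraries were the extremes.

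**Figure D3:**
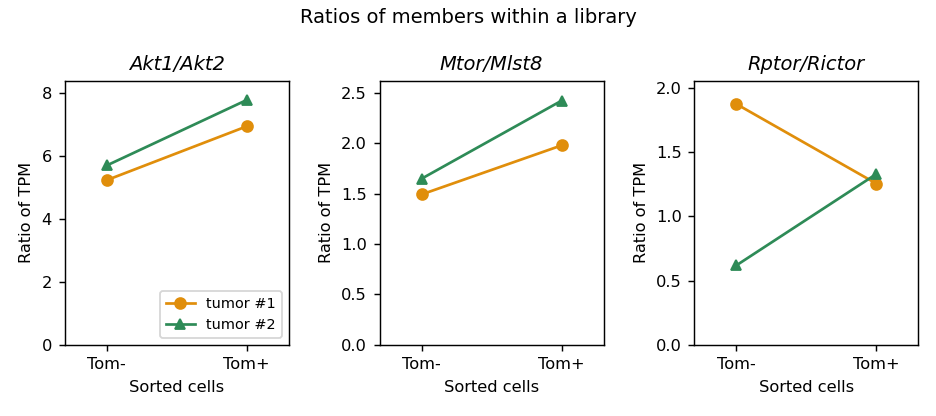
Ratio of the TPM of 2 genes within each library, for Akt1 over Akt2, Mtor over Mlst8 and Rptor over Rictor, with lines joining Tom- and Tom+ cells of the same mouse. The first pair of lines runs from 5.22 to 6.93 and from 5.69 to 7.77, and those for Rptor over Rictor cross.

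Among the regulators of mTORC1, Tsc2 (ENSMUSG00000002496, chromosome 17, bases 24595816 to 24632630), which carries the GAP activity toward RHEB, had opposite changes in the tumors. It was at 49.9 TPM in Tom- and 92.8 TPM in Tom+ cells of tumor #1, while the values in tumor #2 were 78.3 and 62.2 TPM. The lowest and the highest value were both in tumor #1. The log2 fold change of 0.28 ± 0.36 was 0.88 in tumor #1 and −0.33 in tumor #2 (limma unadjusted p = 0.496, adjusted p = 0.948).

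The last 693 bases of Tsc2 overlap exons of Pkd1, the polycystin-1 gene, on the opposite strand, and 7.40% of the stretches of 60 bases in Tsc2 transcripts occur in other genes. Pkd1 was looked at because of this overlap and is described with its values known. It was at 22.3 TPM in Tom- and 4.18 TPM in Tom+ cells of tumor #1, while the values in tumor #2 were 8.0 and 26.1 TPM. The library with the most Tsc2, Tom+ of tumor #1, held the least Pkd1, and in each tumor the fraction with more Tsc2 held less Pkd1. Whether the library kit or the quantification kept the strand is not given in the sources used here, and the part of the overlap in the Tsc2 values was not tested.

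Tsc1 (ENSMUSG00000026812, chromosome 2, bases 28641228 to 28691167), which stabilizes TSC2, differed more by tumor than by fraction. Its level was 3.33 TPM in Tom- and 4.72 TPM in Tom+ cells of tumor #1, while the values in tumor #2 were 9.02 and 9.19 TPM. Both values of tumor #2 were above both of tumor #1, and the log2 fold change between Tom+ and Tom- cells, 0.21 ± 0.22, came from tumor #1 (0.40) more than from tumor #2 (0.024; limma unadjusted p = 0.406, adjusted p = 0.938).

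Rheb (ENSMUSG00000028945, chromosome 5, bases 24802823 to 24842624), the direct activator of mTORC1 and the gene with the E-box shown above, differed least between the fractions. It was at 68.2 TPM in Tom- and 65.7 TPM in Tom+ cells of tumor #1, while the values in tumor #2 were 82.0 and 79.4 TPM. The log2 fold change was −0.050 ± 0.13 (limma unadjusted p = 0.726, adjusted p = 0.977), and was −0.052 within tumor #1 and −0.048 within tumor #2. The sign in tumor #2 turned positive, at 0.0012 to 0.021, under 4 other scalings. Rheb was 1.37 times Tsc2 in Tom- and 0.708 times in Tom+ cells of tumor #1 and 1.05 and 1.28 times in those of tumor #2, a ratio that moved with Tsc2.

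Tumor #2 was also set against tumor #1. Each tumor is 1 mouse whose 2 libraries are not replicates of a condition, so these differences were not tested and cannot be told apart from any other difference between the mice. None of the 9 genes was at least 2-fold apart in the same direction in both fractions, beside 11.8% of all genes tested that were at least 2-fold higher and 3.1% that were at least 2-fold lower in tumor #2. At 1.5-fold on the same log2(TPM + 1) scale, 2 genes were higher in tumor #2, Rictor and Tsc1, and none was lower, beside 22.6% and 7.53% of all genes tested. In TPM itself, Rictor was 2.62 times higher in Tom- and 1.94 times higher in Tom+ cells of tumor #2, and Tsc1 was 2.71 and 1.95 times higher. Mtor was 1.54 and 1.64 times higher, and on the log2(TPM + 1) scale Mlst8 was higher by 0.41 and 0.37 and Rheb by 0.26 and 0.27. The AKT kinases were lower in tumor #2, Akt1 by −0.18 in Tom- and −0.15 in Tom+ cells and Akt2 by −0.29 and −0.30. The median difference over both fractions was 0.36 for the 9 genes and 0.20 for all genes tested.

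Of the variation of each gene over the 4 libraries, the tumor took 96.6% of the sum of squares for Rheb, 94.5% for Rictor, 94.2% for Mlst8 and 92.8% for Tsc1. For Mtor it took 55.9% and the fraction 43.7%. Akt1 was divided 46.4% to the tumor and 53.3% to the fraction, and Akt2 61.0% and 39.0%. Rptor and Tsc2 differed from the other 7 in leaving 48.6% and 82.4% to neither, the share that measures how differently the fractions behaved in the 2 mice. With 4 libraries these shares are descriptions.

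**Figure D4:**
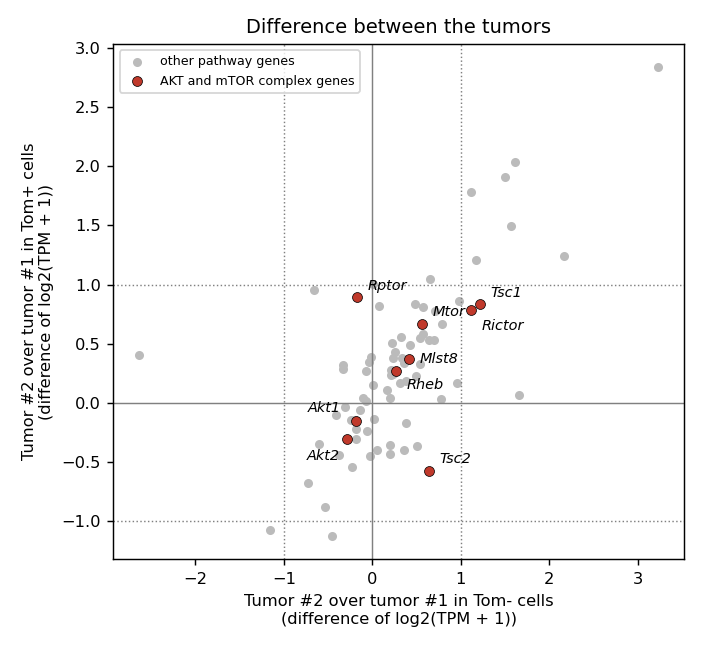
Difference of log2(TPM + 1) of tumor #2 over tumor #1 in Tom- cells (x axis) and in Tom+ cells (y axis), for the 9 genes (red) and 71 other genes of the pathway (grey). Dotted lines mark 2-fold. Rictor and Tsc1 pass 2-fold in Tom- cells only, and Tsc2 and Rptor lie in quadrants where the fractions disagree.

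The other genes of the pathway were read from 5 lists with 81 genes, of which 71 were tested. None passed an adjusted p of 0.05. Of the 71, 17 were higher and 24 lower in the Tom+ fraction of each tumor, beside the 21.6% and 29.5% of all genes tested. At an unadjusted p below 0.05, 4 were called, beside 4.67% of all genes. All 4 were lower in Tom+ cells. Of the 530 called among all genes tested, 299 were lower and 231 higher. The median log2 fold change of the 71 was −0.046, beside −0.033 for all genes tested and 0.18 for the 9 core genes.

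The list of complex partners held 10 tested genes of 11, with 3 higher and 3 lower in both tumors and a median of 0.0036. Tbc1d7, the small additional subunit of the TSC complex, had its largest positive fold change at 0.58 but went from 16.1 to 7.94 TPM in tumor #1 and, in the other direction, from 1.76 to 10.8 TPM in tumor #2 (limma adjusted p = 0.953). The list of kinases and brakes upstream held 15 tested genes of 17, with 4 higher and 5 lower and a median of −0.021. Phlpp1, a phosphatase of AKT, went from 1.79 TPM (Tom-) to 3.44 TPM (Tom+) in tumor #1 and, in tumor #2, from 1.03 to 1.04 TPM. Prkag2, a regulatory subunit of the energy sensor AMPK, went from 20.4 to 16 TPM in tumor #1 and, in tumor #2, from 41.4 to 29.9 TPM.

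Amino acid sensing, through which the Rag GTPases bring mTORC1 to the lysosome, held 22 tested genes of 26, with 6 higher, 8 lower and a median of −0.038. Wdr24, a subunit of the GATOR2 complex that promotes mTORC1 activity, was at 19.7 TPM in Tom- and 7.33 TPM in Tom+ cells of tumor #1, while the values in tumor #2 were 19.1 and 9.61 TPM. Both Tom+ libraries were below both Tom- libraries, an order held by 9.86% of all genes tested. The log2 fold change was −1.12 ± 0.20 (limma unadjusted p = 0.0100, adjusted p = 0.936). Pathway genes below the unadjusted threshold were named for their p, so such an order adds no separate support for them. Depdc5, a subunit of the opposing GATOR1 complex, went from 24.1 to 14.9 TPM in tumor #1 and, in tumor #2, from 30.7 to 19.8 TPM, again without overlap of the groups (log2 fold change −0.63 ± 0.16, limma unadjusted p = 0.0245, adjusted p = 0.936). The largest positive change of the list was that of Kptn, a part of KICSTOR, the scaffold that anchors GATOR1, which went from 7.06 to 9.44 TPM in tumor #1 and, in tumor #2, from 9.30 to 12.2 TPM.

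The effectors of mTORC1 held 12 tested genes of 14, with 2 higher, 4 lower and a median of −0.068. Tfeb, the lysosomal transcription factor that mTORC1 keeps out of the nucleus, was at 10.8 TPM in Tom- and 7.07 TPM in Tom+ cells of tumor #1, while the values in tumor #2 were 21.9 and 8.10 TPM (log2 fold change −0.94 ± 0.28, limma unadjusted p = 0.0404, adjusted p = 0.936). Its Tom+ libraries were both below its Tom- libraries. Rps6kb2, an S6 kinase, had the largest positive fold change at 0.87, which rested on tumor #2, where it went from 8.37 to 28.9 TPM, against 13.8 and 14.5 TPM in tumor #1. That high value was in the library that also held the high values of Rptor and Jchain.

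The effectors of AKT and mTORC2 held 12 tested genes of 13, with 2 higher, 4 lower and a median of −0.086. Ndrg1, a substrate of the mTORC2-dependent kinase SGK1, was near the limit of what was tested, at 1.28 TPM in Tom- and 0.0514 TPM in Tom+ cells of tumor #1, while the values in tumor #2 were 2.59 and 1.17 TPM (log2 fold change −0.92 ± 0.26, limma unadjusted p = 0.0350, adjusted p = 0.936). The forkhead factor Foxo1, which AKT sends out of the nucleus, went from 5.46 TPM (Tom-) to 6.44 TPM (Tom+) in tumor #1 and, in tumor #2, from 9.54 to 11.7 TPM. Without the tumor block, Wdr24 was the only one of the 71 genes with an unadjusted p below 0.05 (limma, 0.0202).

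**Figure D5:**
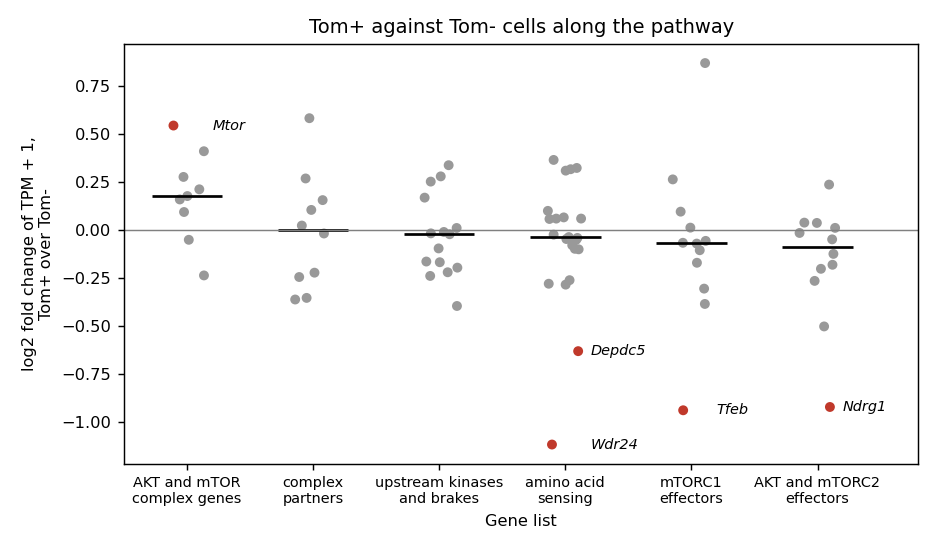
Log2 fold change of TPM + 1 of Tom+ over Tom- cells for each tested gene of the 9 core genes and of the 5 pathway lists, with a black bar at the median of each list. Red points have an unadjusted p below 0.05, which holds for Mtor above 0 and for Wdr24, Depdc5, Tfeb and Ndrg1 below 0.

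Between the tumors, 7 of the 71 genes were at least 2-fold higher and 1 was at least 2-fold lower in tumor #2 in both fractions, beside the 11.8% and 3.1% of all genes given above. The following were picked after their values were seen. Ddit4, the stress-induced inhibitor that acts through the TSC complex, was at 3.68 TPM (Tom-) and 3.78 TPM (Tom+) in tumor #1 against 43.0 TPM (Tom-) and 33.1 TPM (Tom+) in tumor #2. Akt1s1 (PRAS40), the mTORC1 subunit that AKT phosphorylates, was at 5.99 TPM (Tom-) and 7.27 TPM (Tom+) in tumor #1 against 30.4 TPM (Tom-) and 18.5 TPM (Tom+) in tumor #2. Eif4ebp1, the translational repressor that mTORC1 inactivates, was the gene that was lower, at 25.2 TPM (Tom-) and 24.7 TPM (Tom+) in tumor #1 against 10.8 TPM (Tom-) and 11.3 TPM (Tom+) in tumor #2.

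The genes with a pattern most like that of Mtor over the 4 libraries were Csnk1d, Osgin2 and Zbed6, at distances of 0.047, 0.056 and 0.074 between centered log2(TPM + 1) values, among 10078 protein-coding genes compared. Csnk1d went from 62.6 TPM (Tom-) to 87.1 TPM (Tom+) in tumor #1 and, in tumor #2, from 95.5 to 139.9 TPM, the same order of libraries as Mtor. For Tsc1, the gene with the largest difference between the tumors, they were Crtc2, mt-Atp6 and Olfr1336, at 0.021, 0.034 and 0.040. Over 4 libraries such likeness is common, with 106 genes within a distance of 0.3 of Mtor and 327 within 0.3 of Tsc1.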

How the data were processed

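Libraries were made by the authors from RNA of sorted splenocytes (PicoPure, NEBNext) and sequenced as single reads of 60 bases on a HiSeq2500. Reads were obtained with CASAVA 1.8, checked with FastQC, trimmed with Cutadapt and quantified with Salmon (1.9 in the submitters' processing notes) on the mouse transcriptome of GRCm38. The authors deposited 1 table of TPM per gene. How transcripts were summed to genes and whether strand was used are not given in the sources used here. Each column summed to 1000000 TPM, to the nearest whole number, so the depth is unknown.

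Tests used log2(TPM + 1) of genes that reached 1 TPM in 2 or more libraries, with fold changes on that scale, which understates changes of low genes. Linear models with a term for Tom status and one for the tumor were fitted in limma 3.58.1 (R 4.3.3). Variances were moderated with a trend on level, with 1 residual and 2.21 prior degrees of freedom, and two-sided p-values were adjusted by Benjamini-Hochberg over all 11339 genes. The tumor was kept as a block because the libraries of a tumor came from the same mouse, and the authors also tested paired samples, with edgeR, which needs counts and was not run here. The script was tested on simulated data.

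Positions came from GENCODE M21 (GRCm38), which held 34652 of 34866 identifiers, and promoter windows from RefSeq (GRCm38.p6). Stretches of 60 bases were compared between all annotated transcripts. All 9 genes were named, and from each pathway list those with an unadjusted p below 0.05 and the gene with the largest change in each direction. A few items are not reported here. The genes, lists and tests were chosen with earlier results of these data known. Alternatives were other pseudocounts, filters, scalings, fits and leaving out each tumor. Tables were made in pandas 2.3.3 under Python 3.11.15 and plots in matplotlib 3.10.9.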

Additional observations from a re-analysis of the deposited data

How the results depend on the processing

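No fold change of the 9 genes turned direction in a fit on both tumors, and none passed an adjusted p of 0.05, the smallest per alternative lying between 0.913 and 1.00 (limma). The unadjusted p of Mtor was between 0.0382 and 0.256 over 12 alternatives and below 0.05 in 10 of them. The number of the 9 genes with an unadjusted p below 0.05 went from 1 to 0 without the replicate block and to 0 without the filter on low values, and that of the pathway genes from 4 to 1 without the replicate block, which took the difference between the tumors into the spread. The block changed no other call. Leaving out a tumor, which leaves no residual degrees of freedom and so no test, turned 3 of the 9: without tumor #1, Tsc2 went from 0.28 to −0.33 and Rictor from 0.16 to −0.0031, and without tumor #2, Rptor went from 0.41 to −0.12. It also turned 4 of the 7 ratios (Rptor/Rictor, Tsc1/Tsc2, Mtor/Rptor, Rheb/Tsc2), and the median of the 9 was 0.024 to 0.16. With 1.5-fold in place of 2-fold, 2 genes differed between the tumors. The other 55 summary values were counts that were unchanged or within 1.5-fold of the main fit, or medians that stayed within the replicate spread. Among these, the pathway genes with an unadjusted p below 0.05 (limma) went from 4 to 3 with a pseudocount of 0.1. They also went from 4 to 3 with a filter on a mean of 5 TPM. For single genes or ratios, 160 values kept their sign. Scaling changed the numbers higher, lower and opposite in the tumors from 4, 2 and 3 to 5, 1 and 3 (trimmed mean, quantile, without immunoglobulin genes, protein-coding genes alone) or 5, 2 and 2 (without mitochondrial genes). Rictor was left out by a filter on a mean of 5 TPM. The 2 mice and an unknown depth limit every comparison.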
